A study of Mus musculus with 4 samples.

Results

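The 8 genes described here, Fos, Fosb, Fosl1, Fosl2, Jun, Junb, Jund and Atf3, encode the main subunits of the AP-1 transcription factor and its stress-induced relative ATF3. They were chosen by symbol from the 55487 genes of the deposited tables. The rule itself uses no measured value, but it was set with earlier results of these data known. Their UMIs (unique molecular identifiers, one per captured transcript) were followed through the cell classes of 4 single-cell libraries of mouse brain, 1 library per group. The groups combined age with genotype: WT Cre and EC-K4KO, each young and old. All mice, the WT Cre littermates included, carried CdH5-Cre, in the study's methods a tamoxifen-inducible Cre under the promoter of the VE-cadherin gene, and EC-K4KO mice also carried floxed Klf4. The labels give age as a group only and name no drug treatment. Both sexes were used in the study, the number of mice behind each library is not given in the sources used here, and the labels describe an enrichment for endothelial cells before loading. The question was in which classes the 8 genes differed from their level in young WT Cre.

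AP-1 is a dimer of a Jun protein with a Fos, Jun or ATF protein, held together by a leucine zipper. Fos, Fosb, Jun, Junb and Atf3 are immediate early genes, switched on within minutes by growth factors, cytokines, shear stress or cell injury through MAP kinases and serum response factor. Their mRNAs are short-lived, so a level reflects recent signalling, in the animal or during tissue handling. Jund is the Jun member with the steadiest expression, and Fosl1 and Fosl2 respond later than Fos. In the vessel wall, AP-1 is known to drive genes of inflammation, matrix breakdown and growth.

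Because members of the set share a way of being switched on, the stretch just before the start of 4 of them is shown first. Each run holds the 150 bases before the RefSeq start of the gene (GRCm38.p6, 5′ to 3′ on the strand of the gene). Capitals mark TGACG, the shorter form of the cAMP response element (CRE), read on either strand, and TATAAA. The regions are chr12:85473740-85473889 (plus strand) for Fos, chr7:19310046-19310195 (minus) for Fosb, chr8:84978749-84978898 (minus) for Junb and chr1:191183334-191183483 (minus) for Atf3.
Fos: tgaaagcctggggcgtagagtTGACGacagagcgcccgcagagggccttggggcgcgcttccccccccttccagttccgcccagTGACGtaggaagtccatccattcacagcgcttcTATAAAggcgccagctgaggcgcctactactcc
Fosb: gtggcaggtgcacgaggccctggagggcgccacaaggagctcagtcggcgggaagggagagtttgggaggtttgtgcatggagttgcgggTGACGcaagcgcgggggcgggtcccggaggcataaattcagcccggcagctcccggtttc
Junb: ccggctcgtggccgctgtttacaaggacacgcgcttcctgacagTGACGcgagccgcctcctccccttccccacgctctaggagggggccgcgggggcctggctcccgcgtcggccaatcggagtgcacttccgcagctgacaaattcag
Atf3: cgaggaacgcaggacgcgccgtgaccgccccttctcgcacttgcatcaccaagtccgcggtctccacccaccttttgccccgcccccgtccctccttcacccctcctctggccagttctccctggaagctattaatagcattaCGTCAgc

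The motifs were searched on both strands of the 250 bases before the start. Only full matches counted, so sites with a changed letter or further from the start are not covered. RefSeq promoters were at hand for 7 of the 8 genes, all but Fosl1. TGACG lay in 4 of the 7, those printed above, and in 17.8% of all 32851 promoters. Fos held it at 129 to 125 and again at 66 to 62 bases before its start, the latter followed closely by TATAAA at 33 to 28. Fosb held it at 60 to 56, Junb at 106 to 102 and Atf3, on the opposite strand, at 7 to 3. The full CRE, TGACGTCA, which contains TGACG (1.55% of all promoters), the AP-1 site TGANTCA (6.75%) and the CArG box of serum response factor (1.47%) were in none of these 7 windows, and TATAAA (12.4%) was in Fos alone. The Jund window ends well before the start of the gene in the GENCODE annotation, and those of Fosl2 and Atf3 lie inside longer gene models there, so these windows depend on the annotated start.

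Values below are CPM, the UMIs of a gene per 1000000 UMIs of all genes in the cells of one class in one library. They are given in the order young WT Cre, the young library labelled EC-K4KO, old WT Cre, the old library labelled EC-K4KO. Since no group had a replicate library, intervals (95%) cover counting error only, and a difference between 2 libraries has no replicate check. A gene is called apart between libraries when its CPM differed at least 2-fold and the interval of the ratio excluded 1. Only genes whose mean over the 4 libraries of a class reached 10 CPM were counted. The share of all such genes called apart in the same comparison is the background against which the members are read. With cells of 1 library per group, more cells of an active state and more RNA per cell cannot be told apart in a summed level.

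The 4 libraries kept 20737 cells, with total UMIs between 30655769 and 88812581 per library. Classes were rebuilt from marker genes and are called by the class they resemble. They can differ from those of the study. The markers of each named class were detected in each library, except for 1 monocyte marker. Although the labels name the cells brain endothelial cells, only 2713, 3310, 2149 and 1894 of 4496, 6555, 5540 and 4146 cells were endothelial-like, and 11 classes had at least 20 cells in every library. Klf4 in endothelial-like cells stood at 1712, 3281, 2100.1 and 3292 CPM and so was higher, not lower, in the libraries labelled EC-K4KO. This goes against the label, and whether the counted reads fall in the floxed part is not given in the sources used here. Each direction between genotypes below is a direction between labels.

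Where the 8 genes were expressed differed by gene, read here over the 11 classes with 20 cells in every library. Fos was highest in ependymal-like cells (3708, 8453, 9569.8 and 8240.5 CPM) and fibroblast-like cells (7930.1, 6115, 3161 and 3066 CPM), whose ranges over libraries overlap. Smooth muscle-like cells followed with 4663, 4141, 3135 and 3727 CPM. Astrocyte-like cells, with 136, 124, 189 and 189 CPM, were the lowest of the 11 classes by mean level. Junb was highest in fibroblast-like cells (6799, 5849, 5576 and 5784 CPM) and smooth muscle-like cells (4802, 4561, 4775 and 5213 CPM), and lowest in astrocyte-like cells (71.6, 95.9, 107 and 63.1 CPM). Jun had its highest mean in ependymal-like cells (2201, 4704, 3632 and 3860.1 CPM), a range that overlaps those of fibroblast-like, endothelial-like, pericyte-like and B lineage-like cells. The mean level of Jund varied less between classes than that of any other member. Its lowest level was in astrocyte-like cells (188, 234, 205 and 205 CPM), and the other classes lay between means of 753 and 2106 CPM. Atf3 was highest in ependymal-like (649, 2600.1, 2740.3 and 2756 CPM) and smooth muscle-like cells (1208, 1165, 1334 and 1347 CPM). It was nearly absent from astrocyte-like cells, with 0 UMIs in the old library labelled EC-K4KO. Among the same 11 classes Fosl2 was highest in smooth muscle-like cells (492, 547, 600.5 and 659 CPM) and T and NK-like cells (279.9, 267, 526 and 389 CPM), and had a mean under 10 CPM in astrocyte-like and oligodendrocyte-like cells.

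**Figure D1:**
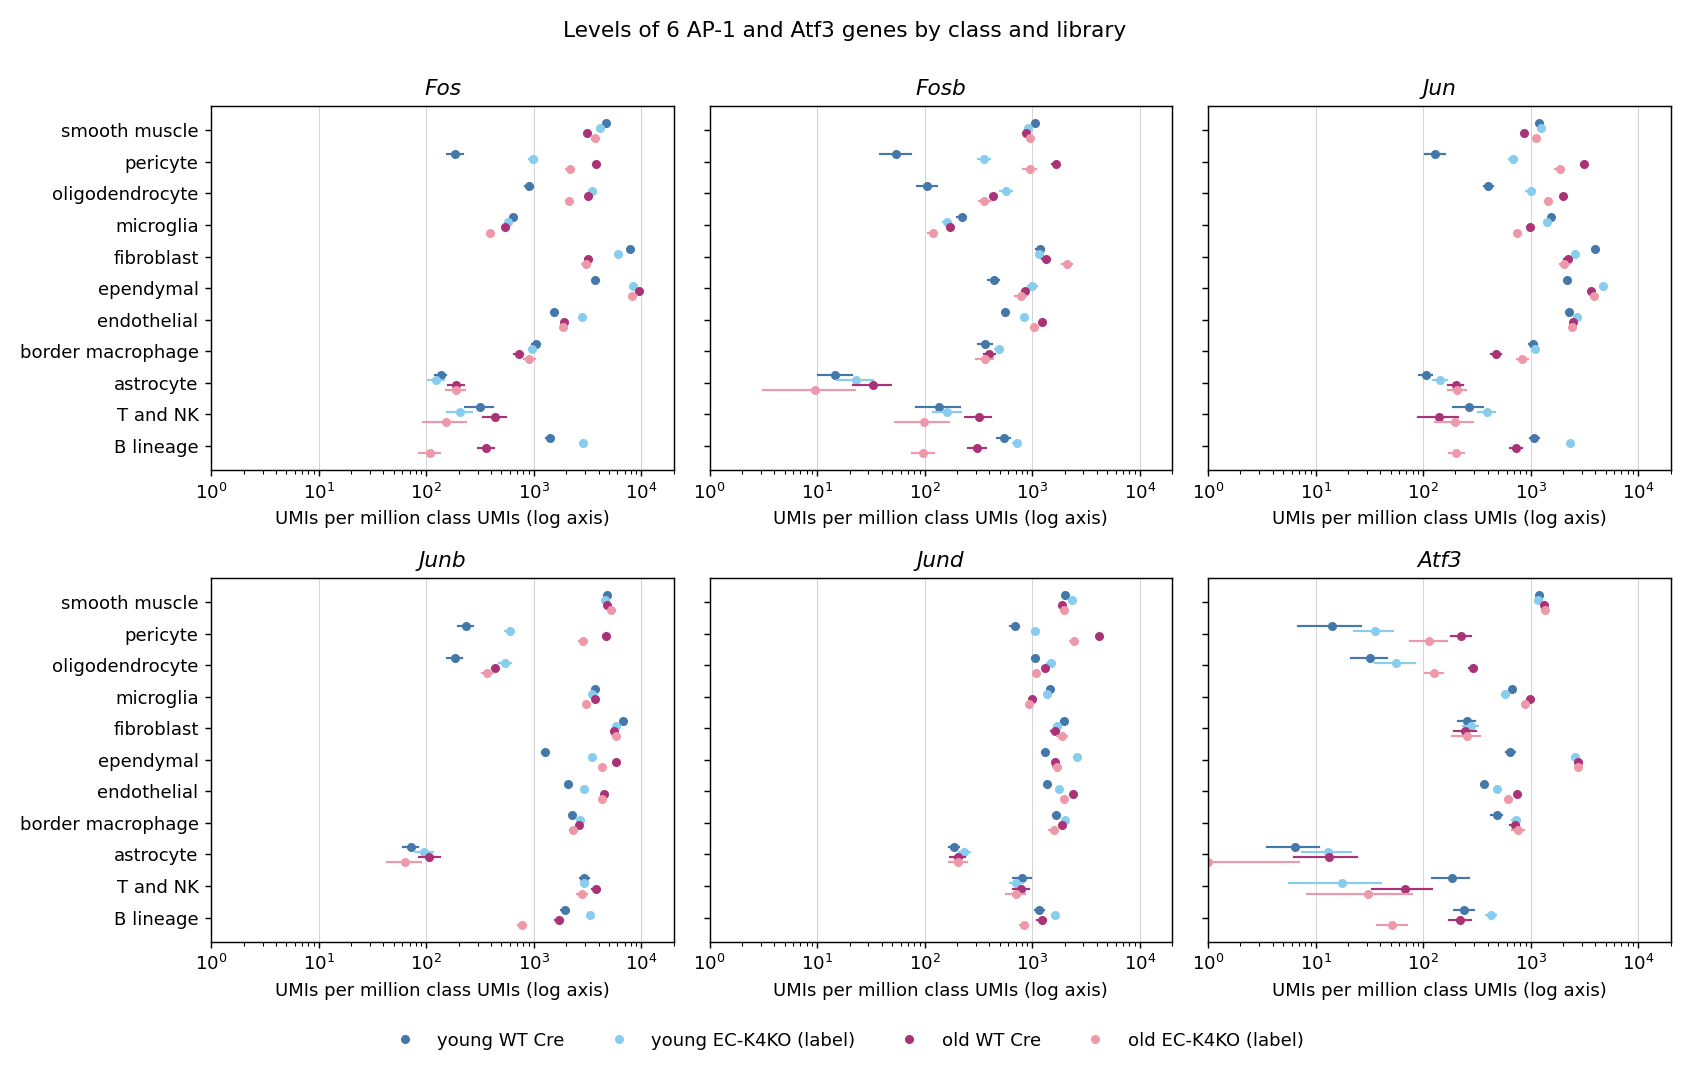
CPM (log axis) of Fos, Fosb, Jun, Junb, Jund and Atf3 in the 11 classes with at least 20 cells in every library. Each point is 1 library and each line its 95% Poisson interval, and the Atf3 value of 0 in astrocyte-like cells is drawn at the left edge; the points lie close together in smooth muscle-like cells and spread over more than 10-fold in pericyte-like cells for 5 of the 6 genes, all but Jund.

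Fosl1 was rare. In endothelial-like cells it had 13, 63, 52 and 42 UMIs, and it had 0 UMIs in all 4 libraries in pericyte-like, astrocyte-like, border macrophage-like and T and NK-like cells. The 3 UMIs that a count of 0 allows would be 4.28 CPM in young WT Cre pericyte-like cells. Its highest level with at least 20 cells was in the 249 neutrophil-like cells of the old library labelled EC-K4KO, with 114 UMIs (106 CPM), against 2 UMIs in the 24 such cells of old WT Cre.

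Endothelial-like cells held higher levels of most members in the old than in the young libraries. Of the 7 members with at least 10 CPM, 4 were called apart in old WT Cre against young WT Cre, Fosb, Fosl2, Junb and Atf3, all higher. Over all 8431 genes 2.42% were called apart in that comparison, and their median log2 ratio was -0.18. In the old library labelled EC-K4KO 2 were, Fosl2 and Junb (background 3.76%). In the young library labelled EC-K4KO 0 of 7 were called (background 0.557%), although all 7 lay above young WT Cre by more than counting error. Within the old pair 0 of 7 were called (0.664%). The 3 comparisons with young WT Cre share the young WT Cre library, so a chance deviation of that library would enter each of them.

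Among the Fos family in endothelial-like cells, Fosl2 had 96.9, 147, 227 and 229.5 CPM. Both old libraries lay above both young ones, at log2 ratios to young WT Cre of 1.23 (1.15 to 1.30) and 1.24 (1.16 to 1.33), while the label moved it by 0.60 in the young pair only. Fosb had 559, 836, 1226 and 1049 CPM, the old libraries again above the young ones. Fos, the namesake of the family, behaved differently. At 1557, 2779.7, 1910.0 and 1851 CPM it was highest in the young library labelled EC-K4KO, a log2 ratio of 0.84 (0.82 to 0.85), and only 0.29 above young WT Cre in old WT Cre.

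Among the Jun family, Junb separated the ages most clearly, with 2087, 2941, 4454 and 4307 CPM and log2 ratios of 1.09 (1.08 to 1.11) and 1.05 (1.03 to 1.06) in the old libraries. Jund, at 1377, 1766, 2421 and 1957 CPM, kept the same order of ages with smaller ratios of 0.81 and 0.51. Jun itself was nearly level at 2279, 2719, 2473 and 2416 CPM, and its largest ratio to young WT Cre was 0.25 (0.24 to 0.27), in the young library labelled EC-K4KO. Atf3 had 369.7, 487, 750.0 and 615 CPM, with ratios of 1.02 (0.98 to 1.06) in old WT Cre and, under the EC-K4KO label, 0.73 (0.69 to 0.78).

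An additive model of age and genotype label was fitted to the 4 endothelial sums with edgeR's quasi-likelihood test over 14924 genes. Since no group had a replicate library, its error term holds any difference of the label effect between the ages. The SE and p-values therefore do not measure spread between replicate libraries. With age, 6 of the 8 members passed at an adjusted p under 0.05, all higher in old libraries, where 16.1% of all genes passed in either direction and 10% passed as higher. Fosl2 rose by a log2 change of 1.08 (SE 0.14), with an edgeR adjusted p of 0.00347. Junb rose by 0.97 (SE 0.15), edgeR adjusted p 0.00765, and Fosb by 0.88 (SE 0.18), 0.0210. Atf3 rose by 0.83 (SE 0.16), 0.0160, and Jund by 0.63 (SE 0.16), 0.0420. Fosl1 also passed, with a change of 2.10 (SE 0.38) and an adjusted p of 0.0133, but on the few UMIs given above. Fos (0.0023 (SE 0.20), adjusted p 0.996) and Jun (0.12 (SE 0.11), adjusted p 0.498) did not pass.

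The test compares 2 libraries with 2, with 1 residual degree of freedom, and it leaned on each library. DESeq2 called 3 members with age, Junb (adjusted p 3.44e-10), Fosl1 (0.00591) and Fosl2 (0.00778). With 1 library left out the genotype term had to be dropped as well, and the group left with 1 library was taken to vary like the other. Then 2 members passed with age without the young library labelled EC-K4KO, where 0.703% of all genes did. Without young WT Cre, old WT Cre or the old library labelled EC-K4KO 0 members passed, where 0%, 1.69% and 0.841% of all genes did, so most calls over all genes were lost too. With the genotype label, 0 of the 8 members passed in edgeR (0.891% of all genes did) and 0 in DESeq2. At an unadjusted p under 0.05 there were 1 in edgeR, Fosl2 at 0.34 (SE 0.14), and 0 in DESeq2.

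Endothelial-like cells made up 9 clusters, of which 7 had at least 20 cells in young and old WT Cre. Within these, the ratio of old to young WT Cre was above 0 in 7 of 7 clusters for Fosl2 (0.11 to 1.10), for Junb (0.21 to 1.23) and for Atf3 (0.01 to 1.38). Fosb and Jund were above 0 in 6 of 7. Fos was above 0 in 3 of 7 (-1.17 to 1.12) and Jun in 3 of 7 (-0.72 to 0.50). Fosl2, Fosb, Junb and Atf3 were at least 2-fold higher in 2, 1, 2 and 4 of the 7 clusters. The ratios of the whole class for Fosl2 (1.23) and Fosb (1.13) lay above those of all 7 clusters (at most 1.10 and 1.09). The part of a changed mix of clusters was not tested. Fosl1 was above 0 in 7 of 7, on few UMIs. For the old library labelled EC-K4KO over young WT Cre, 6 clusters could be read. Fosl2 and Junb were above 0 in 6 of these, Fosb and Atf3 in 5, and Fos, Jun and Jund in 4. Clusters of the same libraries are not replicates.

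Shares of cells with a UMI were compared after thinning every cell to 1000 UMIs, since median depth fell from the young to the old libraries (6375, 9926, 4706 and 3768 UMIs). Junb was then seen in 47.9%, 60.4%, 73.9% and 72.8% of endothelial-like cells, and Fosb in 23.6%, 36.6%, 49.1% and 47.4%. Atf3 was seen in 17.9%, 25.2%, 39.7% and 33.8%. The unthinned shares of Junb were 77.4%, 86.6%, 86.7% and 83.2%. In the thinned cells these 3 genes were held by a larger share in both old libraries than in both young ones, which the unthinned shares of Junb do not show. Fos was seen in 38.6%, 55.9%, 56.8% and 58.8%, lowest in young WT Cre and similar in the other 3 libraries. As a background, Atf3 was seen in 0%, 1.23%, 0.621% and 0% of thinned astrocyte-like cells (median depths 7641, 7174, 4350 and 3678 UMIs).

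Pericyte-like cells, the contractile cells wrapped around capillaries, showed the widest differences among classes. In old WT Cre 7 of 7 members with at least 10 CPM were called apart from young WT Cre, all higher, where 1.92% of all genes were called higher. In the old library labelled EC-K4KO it was also 7 of 7 (background 2.18%), and in the young library labelled EC-K4KO 5 of 7, all but Fosl2 and Jund (background 1.59%). The median log2 ratio of the members was 4.32, 3.54 and 1.37 in these 3 comparisons, and that of all genes lay between -0.13 and -0.014. They rest on 188, 195, 139 and 99 cells.

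The order of the libraries was the same for 6 of these 7 genes. Fos had 185, 985, 3753 and 2157 CPM, so old WT Cre was 20.2-fold above young WT Cre, a log2 ratio of 4.33 (4.08 to 4.61). Fosb had 54.2, 356, 1652 and 947 CPM, and its 30.1-fold ratio was the widest of any member in any class among those with over 20 UMIs in both libraries. Young WT Cre was lowest for both, followed by the young library labelled EC-K4KO, with old WT Cre highest.

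Jun had 129.8, 686, 3109.5 and 1861 CPM and Junb 232, 600.4, 4668 and 2855 CPM, with old WT Cre above young WT Cre by log2 ratios of 4.58 (4.27 to 4.91) and 4.32 (4.10 to 4.57). Jund, which starts from a higher level, had 687, 1067, 4224 and 2444 CPM and was 6.14-fold higher. Atf3 had 14.3, 35.4, 226 and 114 CPM, from only 10, 24, 83 and 27 UMIs. Fosl2, at 31.4, 28.0, 104 and 67.7 CPM, was the exception in order, with the young libraries level within counting error. The old library labelled EC-K4KO lay below old WT Cre for each of the 7, at log2 ratios from -0.97 for Atf3 to -0.59 for Fosl2, with 0 called apart (3.19%).

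**Figure D2:**
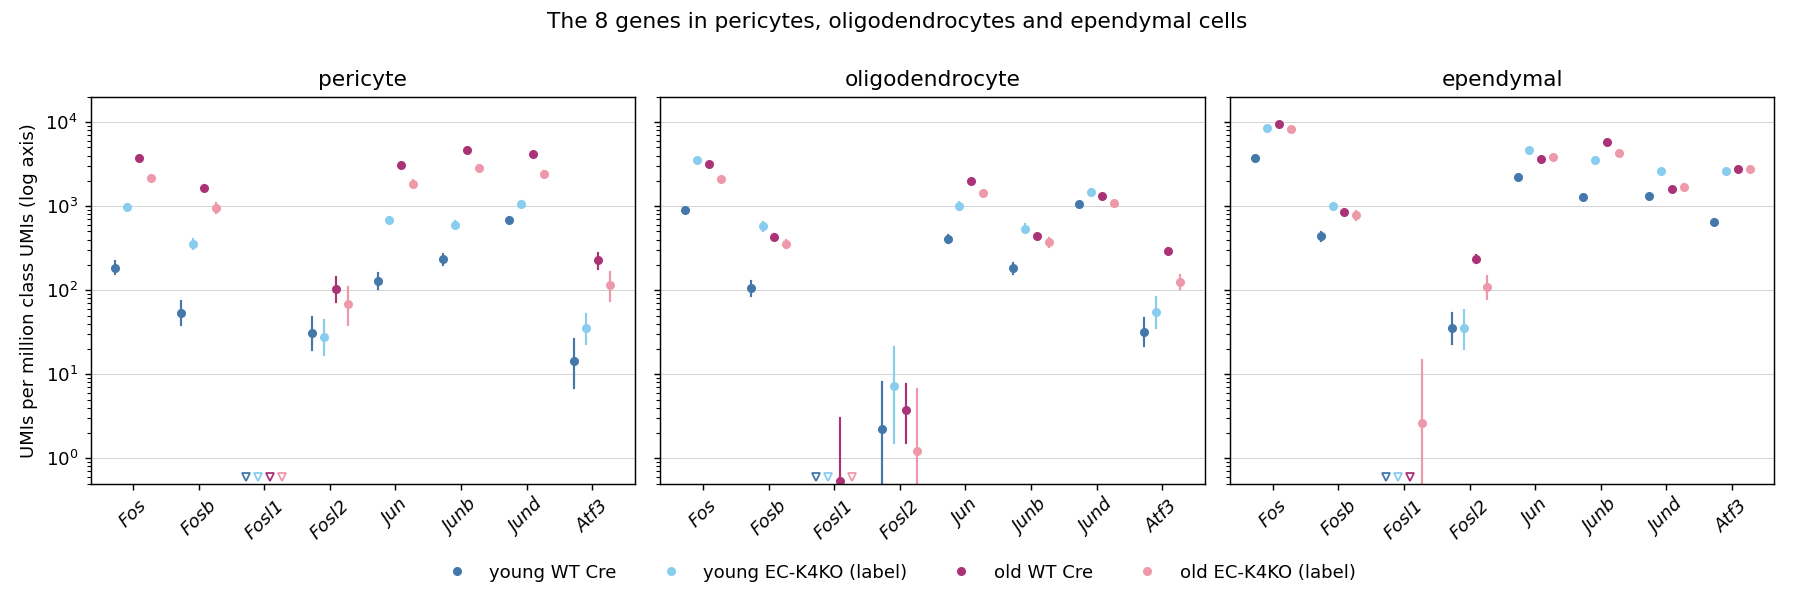
CPM (log axis) of the 8 genes in pericyte-like, oligodendrocyte-like and ependymal-like cells, with 1 point per library, its 95% Poisson interval as a line, and open triangles at the bottom for 0 UMIs. Young WT Cre is the lowest of the 4 libraries for Fos, Fosb, Jun, Junb, Jund and Atf3 in pericyte-like and ependymal-like cells, and in pericyte-like cells old WT Cre is the highest.

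The share of pericyte-like cells that held Fosb, Junb or Jund was also lowest in young WT Cre and higher in both old than in both young libraries, while that of Fos was 14.9%, 25.1%, 46.8% and 22.2%. After thinning to 1000 UMIs, Fosb was seen in 3.19%, 14.4%, 42.4% and 24.2% of cells, Junb in 12.8%, 22.1%, 49.6% and 35.4% and Jund in 42.0%, 47.7%, 71.2% and 71.7%. Unthinned shares of Fosb were 6.91%, 23.6%, 47.5% and 29.3%, at median depths of 3692, 3293, 2429 and 2238 UMIs. With each cell given the same weight the mean of Fos was 179, 838, 3211 and 1860.2 CPM, close to the sums. The endothelial markers in these cells stood at 329, 704, 278 and 524 CPM, higher in both libraries labelled EC-K4KO than in both WT Cre libraries. All 8 of them had UMIs, and their part in the ratios was not tested. Among cells with at most 2 endothelial marker UMIs (159, 147, 137 and 93 cells), Fos was at 189.8, 992, 3817 and 1857 CPM and Junb at 214, 526, 4746 and 2467 CPM. Old WT Cre was similarly far above young WT Cre there, but with classes set by the marker UMIs of each cell the log2 ratio fell to 3.10 for Junb and 3.47 for Fos. The summed pericyte markers were level, at 40768, 42302, 40879 and 41850.5 CPM. Erythroid markers were highest in the young library labelled EC-K4KO (513, 2258, 398 and 461 CPM), and their part in its ratios was not tested.

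**Figure D3:**
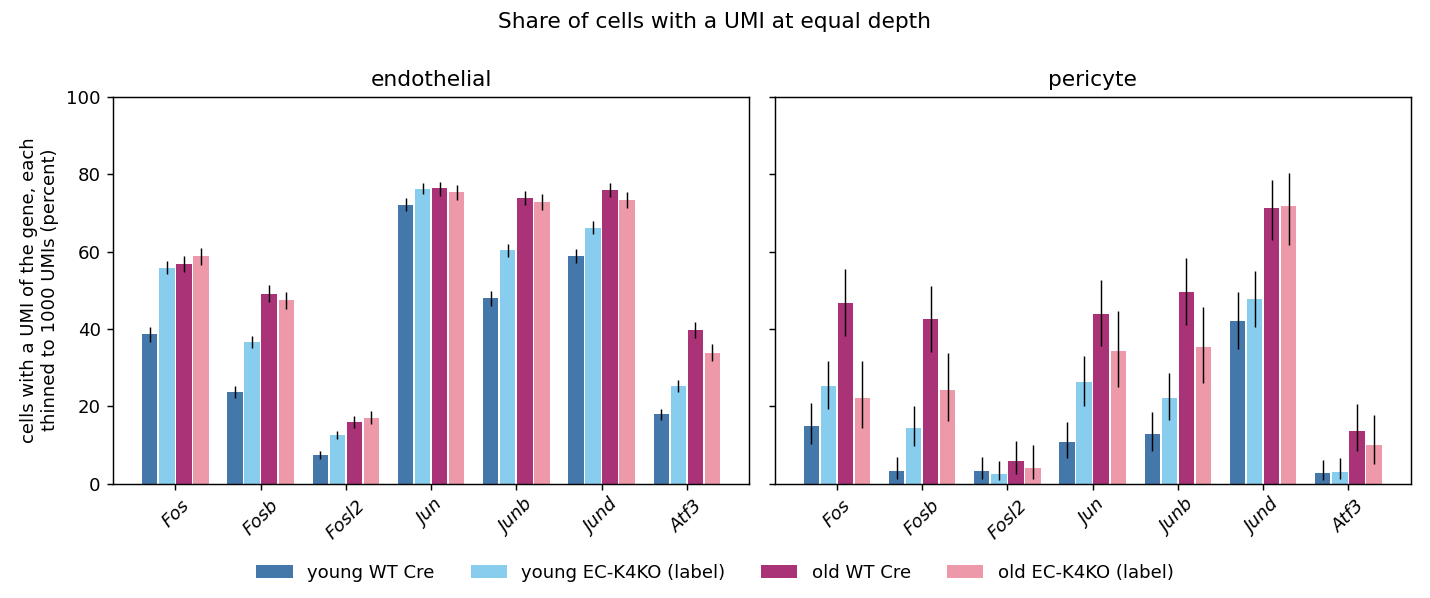
Share of endothelial-like and pericyte-like cells with at least 1 UMI of each gene after thinning every cell to 1000 UMIs (percent, bars from 0), with exact 95% binomial intervals as lines. In endothelial-like cells Junb goes from 47.9% in young WT Cre to 73.9% in old WT Cre, and in pericyte-like cells from 12.8% to 49.6%.

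Other genes with quick responses were higher in the same libraries. In pericyte-like cells of old WT Cre, 12 of 16 measured immediate early genes other than the members were called higher than in young WT Cre and 0 lower, against 1.92% of all genes called higher, with a median log2 ratio of 1.60. Egr1, an immediate early zinc finger factor, had the highest at 3.36 (204 against 2093 CPM), followed by Socs3, a brake on cytokine signalling, at 3.35. Of 8 heat shock genes 6 were called higher, led by Hspa1a at 4.48 (227 against 5061 CPM). In the young library labelled EC-K4KO 3 of 16 and 3 of 8 were called higher, against 1.59% of all genes. Immediate early and heat shock genes are known to respond to tissue dissociation as well as to signals in the animal, and the part of either in these levels was not tested. Of 16 other bZIP factors measured 3 were called higher and 0 lower, among them Cebpd at 2.30. Of 6 genes described as AP-1 targets 1 was called higher and 0 lower, with a median log2 ratio of -0.17 beside -0.13 for all genes, and of 13 kinases and serum response factors that act upstream of AP-1 0 were called in either direction.

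The same additive model was fitted to pericyte-like sums, a choice made after these levels had been seen. In edgeR 7 of 7 members passed with age, all higher, where 1.9% of 7222 genes passed, and 0 of 7 with genotype label (3 unadjusted, 0.235% of all genes). DESeq2 called 1 of 7 with age, with 7 of 7 at an unadjusted p under 0.05, and 0 of 7 with genotype label (0 unadjusted). The young libraries differed from each other up to 6.49-fold for Fosb.

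Oligodendrocyte-like cells, the myelin-forming glia, differed from young WT Cre in all 3 other libraries. Of 6 members with at least 10 CPM, 4, 5 and 5 were called apart in the young EC-K4KO label, old WT Cre and the old EC-K4KO label, all higher. The backgrounds were 4.53%, 5.03% and 5.42%. Fos had 897, 3504, 3197 and 2106 CPM, with young WT Cre lowest and the young library labelled EC-K4KO highest. Jun, at 406, 1008, 2019.7 and 1442 CPM, and Atf3, at 32.2, 55.7, 292 and 127 CPM, were instead highest in old WT Cre. Jund differed least, with 1058, 1481, 1318 and 1087 CPM. Young WT Cre oligodendrocyte-like cells also held the most erythroid marker UMIs (8011, 439, 154 and 184 CPM), and the part of that in the ratios was not tested. Other immediate early genes were higher in the same 3 libraries, 9, 12 and 11 of 17 called higher and 0 lower, as were heat shock genes, 4, 5 and 4 of 8 called higher and 0 lower. Their part was not tested either. With at most 2 endothelial marker UMIs per cell, Fos was at 856, 4112, 3203 and 2198 CPM, nearly as in the whole class. Within the old pair 1 of 6 was called, Atf3, lower under the EC-K4KO label (2.36%). In the model added after seeing the data, Jun and Atf3 passed with age in edgeR (2.47% of all genes did) and 0 members did in DESeq2.

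Ependymal-like cells, the ciliated lining of the ventricles, followed with 5, 4 and 4 of 7 members called higher in the young EC-K4KO label, old WT Cre and the old EC-K4KO label, and 0 lower. The backgrounds were 1.82%, 4.15% and 2.78% higher. Atf3 had 649, 2600.1, 2740.3 and 2756 CPM, so that 3 libraries lay close together and young WT Cre stood alone below them. Junb had 1276, 3502, 5869 and 4312 CPM, with the old libraries above the young. Fosl2 also had both old libraries above both young ones, at 35.6, 35.6, 234 and 110.4 CPM. These values rest on only 29, 20, 113 and 38 cells. Endothelial markers in them stood at 481, 638, 162 and 49.9 CPM, higher in the young libraries, and only 10, 6, 107 and 37 cells had at most 2 endothelial marker UMIs. In those cells Atf3 had 8, 450, 3776 and 1029 UMIs (69.7, 5186, 2725 and 2812 CPM), young WT Cre again the lowest. Other immediate early genes were called higher in 8, 12 and 9 of 18 cases and lower in 0, and heat shock genes higher in 3, 0 and 2 of 8 and lower in 0, 1 and 1, and their part was not tested. Fosl2 was also called lower in the EC-K4KO label of the old pair, 1 of 7 members (2.43% lower). In the added model Fosl2 alone passed with age, in both edgeR (1.94% of all genes) and DESeq2.

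**Figure D4:**
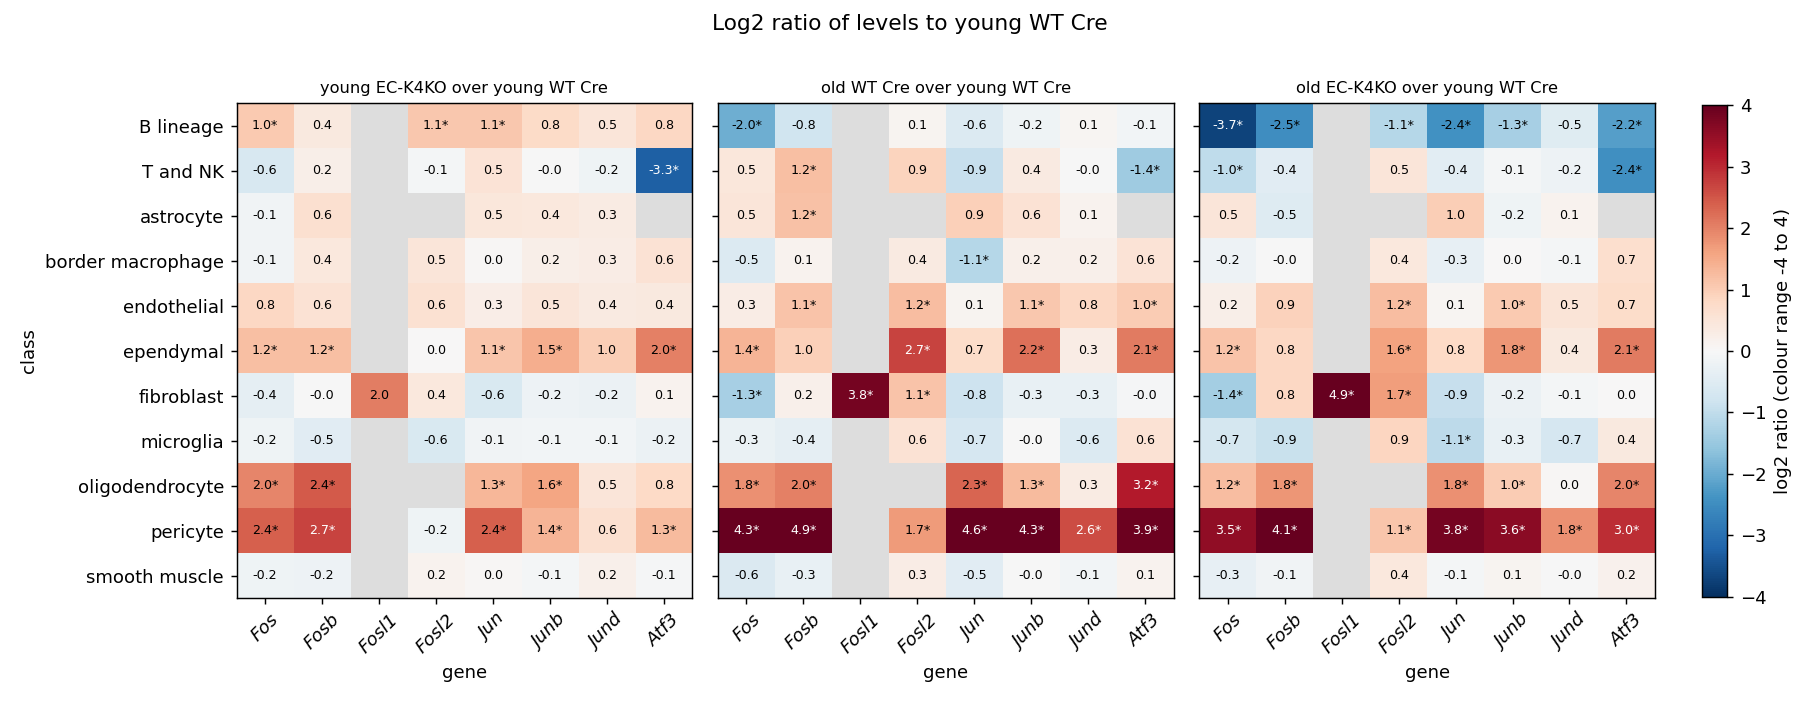
Log2 ratio of CPM to young WT Cre for each gene (columns) and class (rows) in the 3 other libraries, with colours from -4 to 4. An asterisk marks ratios that are at least 2-fold with an interval excluding 1, and grey cells have a mean under 10 CPM; asterisks gather in the pericyte, oligodendrocyte and ependymal rows, and the smooth muscle row has none.

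Smooth muscle-like cells held most members at high levels in every library. Of 7 members 0 were called apart in any of the 3 comparisons with young WT Cre or within the old pair (backgrounds 0.702%, 2.17%, 3.65% and 1.17%). The ratio furthest from 0 was that of Fos in old WT Cre, -0.57 (-0.61 to -0.54), downward. Junb was at 4802, 4561, 4775 and 5213 CPM and Atf3 at 1208, 1165, 1334 and 1347 CPM. Between old and young WT Cre, the log2 ratio of Junb was -0.0081 in smooth muscle-like and 4.32 in pericyte-like cells. That contrast between classes was not tested. It leaves out an unnamed cluster of 546 cells that reached 6 of 7 smooth muscle markers but had pericyte markers among its leading genes. Junb and Fosb were higher there in old than in young WT Cre, as described at the end. In the model added after seeing the data only Fosl1 passed with age in edgeR (2.30, 4.18% of all genes), on 5, 27, 36 and 13 UMIs, and 0 members in DESeq2 (3 unadjusted).

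Microglia-like cells, the resident macrophages of brain tissue, had few calls. The median log2 ratio of all genes was itself -0.26 in old WT Cre and -0.29 in the old EC-K4KO label, and that of the members -0.26 and -0.67. Jun had 1552, 1408, 981 and 744 CPM and was called lower in the old library labelled EC-K4KO, 1 of 7 members (background 9%). Old WT Cre and the young EC-K4KO label had 0 of 7 called (backgrounds 6.01% and 1.12%), and within the old pair also 0 of 7 (0.821%). Atf3, at 674, 573, 996 and 885 CPM, and Fosl2, at 40.9, 26.7, 61.1 and 75.1 CPM, were higher in both old than in both young libraries, while Jun and Jund (1473, 1360.5, 999 and 929 CPM) were lower. A microglia-like cluster led by Ccl3 and Ccl4 held 29, 32, 631 and 354 of these cells. Without it, a choice made after seeing the data, Jun stood at 1696, 1481, 1342 and 1103 CPM, no longer 2-fold apart at a log2 ratio of -0.62. Atf3 stood at 629.9, 519, 936 and 917 CPM there and Fosl2 at 28.7, 22.8, 36.9 and 40.2 CPM. Within the cluster alone Atf3 was at 919.5, 1033, 1037 and 866 CPM and Fosl2 at 108, 60.6, 77.5 and 96.6 CPM. In that cluster neither gene was higher in both old than in both young libraries. In the added model Atf3 (0.91), Fosl2 (1.37) and Jun (-0.48) passed with age in edgeR, where 29.7% of all genes passed, and 3 members passed in DESeq2. With the genotype label 1 of 7 passed in edgeR, Fosb, which was lower by a log2 change of -0.49 (edgeR adjusted p 0.00101, 3 members unadjusted, 1.55% of all genes called), and 0 in DESeq2 (2 unadjusted).

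Fibroblast-like cells had the second-highest mean Fos level, and it was lower in the old libraries: 7930.1, 6115, 3161 and 3066 CPM, a log2 ratio of -1.33 (-1.43 to -1.23) in old WT Cre. Fosl2 was higher, with 136, 181, 299.9 and 430.1 CPM. These 2 of the 7 members other than Fosl1 were called apart in each old library, where 14% and 14.6% of all genes were, and 0 in the young library labelled EC-K4KO (9.89%). Fosl1 reached a mean of 10 CPM only through the old libraries, with 0, 2, 4 and 5 UMIs, and its calls there are not read as a result. Other markers moved in this class: erythroid markers stood at 10285, 274, 93.7 and 93.7 CPM, pericyte markers at 537, 2273, 2743 and 772 CPM and endothelial markers at 1822, 2163, 1087 and 805 CPM. The class also joins 2 clusters whose mix differed by library. The cluster led by Coch and Tcf21 held 30, 15, 16 and 5 cells, and that led by Rbp4 and Mfap5 held 1, 28, 18 and 19. The part of these markers and of this mix in the differences of Fos and Fosl2 was not tested. With 31, 43, 34 and 24 cells, 0 of 7 members tested passed with age in edgeR (0% of all genes did, 2 members unadjusted) and 0 in DESeq2 (0 unadjusted).

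Of the immune classes, border macrophage-like cells differed little: 1 of 7 members was called in old WT Cre, Jun, which was lower at 1059.8, 1088, 480.2 and 837 CPM (background 8.93%), and 0 of 7 in either other comparison with young WT Cre (4.58% and 7.48%). T and NK-like cells had 1, 2 and 2 of 7 called against young WT Cre (backgrounds 6.61%, 5.86% and 5.82%), on 22, 47, 35 and 30 cells. Atf3 was the member called in all 3, lower, with 27, 5, 11 and 4 UMIs. Erythroid markers in these cells were also highest in young WT Cre (2915, 675, 251 and 229 CPM), and their part was not tested. Endothelial markers stood at 1440.5, 4649.9, 1683 and 237 CPM, and the 17, 34, 32 and 29 cells with at most 2 endothelial marker UMIs held 2, 2, 3 and 4 Atf3 UMIs, too few to show a difference. B lineage-like cells had 6 of 7 members called lower in the old library labelled EC-K4KO (background 15.6%), 1 lower in old WT Cre, Fos (7.91%), and 3 higher in the young pair, Fos, Fosl2 and Jun (7.05%). With cells weighted equally the log2 ratios of these 3 were 0.55, 0.41 and 0.59, below 2-fold. Within the old pair 6 of 7 were lower (12.2%). Fos had 1412, 2897, 360.2 and 108 CPM there. Erythroid markers in these cells ran the other way (2923, 339, 22022 and 27069 CPM), and their part was not tested. Endothelial markers moved in the same order, 7138, 14788, 5493 and 1463 CPM with all 8 markers detected, and the 11, 22, 45 and 67 cells with at most 2 endothelial marker UMIs had only 174, 692, 76.0 and 23.0 CPM of Fos. The part of endothelial RNA in the levels of the whole class was not tested. With classes set by the marker UMIs of each cell, the log2 ratios within the old pair turned upward for 5 members, to 0.42 for Fos and 0.97 for Jun.

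Astrocyte-like cells had 0, 1 and 0 of 5 members called (backgrounds 3.72%, 4.24% and 5.57%), the 1 being Fosb at 14.8, 23.0, 33.0 and 9.56 CPM, from 32, 28, 25 and 5 UMIs. Neuron-like cells could be compared in 3 libraries only, and 1 of 7 members was called in old WT Cre, Atf3, which reached a mean of 10 CPM through that library, on 20 against 7 UMIs (background 6.98%), and 0 of 7 in the young pair (4.08%). Neutrophil-like cells could be compared within the old pair alone, with 24 WT Cre and 249 EC-K4KO-labelled cells. There 5 of 8 members were called lower, Fosb, Fosl2, Junb, Jund and Atf3, and Fosl1 was called higher, where 12.1% of all genes were called apart and their median log2 ratio was -0.73. Junb had 2492 and 997 CPM, and with TMM factors its log2 ratio moved from -1.32 to -0.46. Fosb (-0.63), Fosl2 (-0.17) and Jund (-0.40) were then below 2-fold too, which left Atf3 (-1.31) as the sole lower member past it.

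Over the classes together, 25 of 82 class by member ratios were called higher and 4 lower in old WT Cre against young WT Cre, where 7.26% of all class by gene ratios were called. In the young library labelled EC-K4KO 17 were called higher and 1 lower of 82 (4.68%), and in the old library labelled EC-K4KO 20 higher and 10 lower of 75 (8.11%). Pericyte-like, oligodendrocyte-like, ependymal-like and endothelial-like cells held 20 of the 25 higher ratios of old WT Cre. Within the old pair 1 was higher and 16 lower in the library labelled EC-K4KO of 96 (5.06%), 6 of the lower ones in B lineage-like and 5 in neutrophil-like cells. Only 12 of these 17 stayed 2-fold with TMM factors, and 5 of the B lineage-like ratios turned sign with classes set by cell markers. These counts include Fosl1 in fibroblast-like and Atf3 in neuron-like cells. In the added models 0 members passed with the genotype label in oligodendrocyte-like, ependymal-like, smooth muscle-like and fibroblast-like cells in edgeR (0.431%, 0%, 0.168% and 0% of all genes, and 4, 1, 0 and 0 members unadjusted) and 0 in DESeq2 (0 unadjusted). With size factors in edgeR 1 passed in oligodendrocyte-like cells, Fosb, higher under the label. Ratios within a class share their library and its cells, so they are not independent of each other.

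Genes of the pathway around AP-1 were read in endothelial-like cells. Of 21 other bZIP factors, the protein class that AP-1 belongs to, 18 had at least 10 CPM, and 12 of the 21 rose and 0 fell with age in the edgeR model, where 10% of all genes rose. Maff, a small Maf factor, had the highest ratio of old to young WT Cre at 1.03 (73.7 against 151 CPM), followed by Jdp2, a partner of Jun, at 0.94. Atf6 (-0.16) and Creb1 (-0.12) had the lowest. Upstream kinases and serum response factors were flatter: 2 of 14 rose with age, Mapk8 and Rps6ka3, a share near that of all genes, 0 fell, and the ratios of old to young WT Cre ran from -0.49 for Mapk14 to 0.27 for Mapk8.

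Of 18 genes described as AP-1 targets 8 rose with age and 0 fell (10% of all genes rose), and 6 of the 18 reached a mean of 10 CPM. Ptgs2, the inducible cyclooxygenase, had 88.5, 197, 494 and 808 CPM and a log2 ratio of 2.48 in old WT Cre. It was also one of the 2 targets that passed with the genotype label, higher in the libraries labelled EC-K4KO (0.96, edgeR adjusted p 0.0201). The other was Ccnd1, cyclin D1, which fell with the label by a log2 change of 0.96 (edgeR adjusted p 0.00512), from 123 to 59.0 CPM in the young pair. Ptgs2 was also a leading gene of an endothelial-like cluster led by Ackr1 and Vwf. That cluster held 16, 54, 42 and 67 of the 2713, 3310, 2149 and 1894 endothelial-like cells. The level of Ptgs2 without it is not given here. Plaur, the urokinase receptor, had a ratio of 1.76 in old WT Cre, and Ets1 of -0.15. Of 20 other immediate early genes 8 rose and 1 fell with age, Ccn1. Ier3 led with a ratio of 2.12 and rose from 1295 to 5627 CPM between young and old WT Cre. All 8 heat shock genes rose with age, with Hsph1 at 1.16 as the highest and Hspe1 at 0.11 as the lowest ratio. The immediate early and heat shock lists thus moved in the endothelial-like cells in which the members did, and their part in the members' levels was not tested.

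The genes most like each member were read across 44 values, 11 classes in 4 libraries, among the 3506 genes whose mean reached 50 CPM, by Pearson's r of log2(CPM + 1). Values of one library share its depth and preparation, and genes are not independent replicates, so these are descriptions. Fos was most like Egr1 (0.91), Dusp1, a MAP kinase phosphatase (0.84), and Ubb (0.81). Jun was most like Egr1 (0.89) and Dusp1 (0.85), and Fosb like Nr4a1 (0.87), Dusp1 (0.87) and Egr1 (0.87). Jund came closest to H3f3b (0.84), Nr4a1 (0.83) and Egr1 (0.83). Junb, by contrast, was nearest to Csrnp1 (0.93), Gadd45b (0.92) and Ppp1r15a (0.90), and Atf3 to Zfp36, which destabilises cytokine mRNAs (0.91), Eif1a (0.87) and Socs3 (0.84). Fosl2 was most like Isg15 (0.88), Pnrc1 (0.87) and Crem (0.86), and the rare Fosl1 like Ptgis (0.75), Atf4 (0.68) and Azin1 (0.68). Among the members themselves the closest pairs were Fosb with Jund (0.92), Fos with Jun (0.89) and Fos with Fosb (0.86).

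The genes lie on 7 chromosomes of GRCm38 in the GENCODE annotation. Fos is at chr12:85473890-85477273 (plus strand), Fosb at chr7:19302696-19310051 (minus) and Fosl2 at chr5:32135801-32157842 (plus), with no overlapping gene. Jun, at chr4:95049034-95052222 (minus), overlaps the antisense gene Junos. Junb, at chr8:84974484-84978718 (minus), overlaps Prdx2 on the other strand, and Jund, at chr8:70698949-70700616 (plus), overlaps the antisense gene Gm11175. Fosl1, at chr19:5447547-5455946 (plus), overlaps Ccdc85b, and Atf3, at chr1:191170296-191218039 (minus), a small RNA gene, Gm24748. How the counting treated strand is not given in the sources used here, so reads of these 5 genes and of their partners on the opposite strand may not be told apart.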

How the data were processed

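Single-cell RNA sequencing counts of 4 mouse brain libraries were used. The authors made the deposited UMI counts per gene and barcode with Cell Ranger, version 6.0.2 in the file headers, on mm10 (GRCm38) per the submitters' processing notes, which also name Seurat. The files hold barcodes called as cells and no further normalization, and more barcodes than the cells described by the study. Each group is 1 library of 5324 to 8358 barcodes, and pairs of libraries shared 7 to 42 barcodes.

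Kept barcodes had 500 or more genes, 1000 or more UMIs and mitochondrial UMIs of 10% or less, and the highest Scrublet doublet scores were removed at 0.8% per 1000 cells, because the automatic threshold marked few. Cells were clustered with scanpy 1.11.5 and leidenalg 0.10.2 (2000 variable genes, 30 components, resolution 1) into 36 clusters, of which 7 stayed unnamed. A class name needed at least 3 and at least 50% of its markers, and no other class with more markers among the top 10 genes, a rule set after clusters were seen. The class markers include none of the 8 genes.

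UMIs were summed per class and library. Log2 ratios of CPM had 0.5 UMIs added and exact conditional binomial intervals, and levels had exact Poisson intervals (95%). The additive model used edgeR 4.0.16 with TMM factors, with DESeq2 1.42.0 as an alternative. Both the ratio and the model steps were tested on simulated data. Named genes were the 8 members, the 3 genes most like each (1 of which is not reported here), and the 2 highest and 2 lowest ratios of old to young WT Cre in each list, with further list genes named where a count was small. The members, lists and tests were chosen with earlier results of these data known.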

Additional observations from a re-analysis of the deposited data

Results flagged for a closer look

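The genotype label went with opposite directions in the young and the old pair for several members. In each case both log2 ratios (the library labelled EC-K4KO over WT Cre of the same age) were beyond counting error, with 1 library on each side, and the difference between the pairs was not tested.

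In endothelial-like cells 6 members were higher with the label in the young and lower in the old pair. Fos stood at 0.84 in the young and -0.045 in the old pair. The ratios of Fosb were 0.58 and -0.23. Jun stood at 0.25 in the young and -0.034 in the old pair. The ratios of Junb were 0.49 and -0.048. Jund stood at 0.36 in the young and -0.31 in the old pair. The ratios of Atf3 were 0.40 and -0.29. The old ratios of Fos, Jun and Junb lay near the median of all genes, -0.018. With cells weighted equally Fos went from 1833 to 1909 CPM in the old pair and Junb from 3993 to 3999.7 CPM, so that neither was lower. Within 7 endothelial-like clusters Fos was higher with the label in the old pair in 4, Junb in 3 and Jun in 2.

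Smooth muscle-like cells had the opposite order. Fos was at -0.17 among young and 0.25 among old libraries. Fosb was at -0.20 among young and 0.15 among old libraries. Junb was at -0.074 among young and 0.13 among old libraries. In microglia-like cells Fosl2 was at -0.61 and 0.30. None of these ratios reached 2-fold.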

How the results depend on the processing

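Counts of called members were recomputed under other scalings, filters, cell selections and class rules, 1 at a time, except that leaving out a library also dropped the second model term. No paired analysis was possible because each group has a single library with the replicate number 1. In endothelial-like cells the count in the old library labelled EC-K4KO went from 2 to 4 with cells weighted equally or a fold of 1.5, and that in the young library labelled EC-K4KO from 0 to 1 with no filter on low values and to 2 with a fold of 1.5. Over all classes, a fold of 1.5 moved the young label count from 18 to 29 and the old label count from 17 to 30. The old label count was 10 with cells weighted equally, 11 with the stricter cell filter and 10 with classes set by the marker UMIs of each cell. In the endothelial model, members passing with age went from 6 to 3 with DESeq2 and to 3 with age as the sole term, and lay between 0 and 2 when 1 library was left out with age as the sole term. Members passing with the genotype label went from 0 to 2, Fos and Fosl2, with no filter on low counts. In the models added for other classes, DESeq2 called 1 member with age in B lineage-like cells (edgeR 0), 0 in astrocyte-like (1), 0 in border macrophage-like (1, and 0 with size factors), 0 in oligodendrocyte-like (2), 1 in pericyte-like (7) and 0 in smooth muscle-like cells (1).

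Among called ratios, those reversed were the ratios of the old pair in B lineage-like cells with classes set by cell markers, Fos 0.42, Fosb 0.54, Fosl2 1.94, Jun 0.97 and Atf3 4.42, and Fos in T and NK-like cells of the old EC-K4KO label over young WT Cre under the stricter cell filter, 0.027. The cause was not tested. Ratios near 0 that were not called could change sign too, such as endothelial Fos and Junb within the old pair with cells weighted equally. Of the ratios called in old WT Cre, 28 of 29 stayed at least 2-fold under TMM and under size factors, 26 of 30 under both in the old EC-K4KO label over young WT Cre, and 12 and 13 of 17 within the old pair. In pericyte-like cells the log2 ratio of Junb in old WT Cre ran from 3.10 to 4.48 and that of Fos from 3.47 to 4.49 over the alternatives.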

Other observations

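A cluster of 546 cells that stayed unnamed, with Rgs5, Higd1b and contractile genes among its leading genes, held members at levels of its own. It reached 6 of 7 smooth muscle markers and enough markers of no other class, but is not counted in the smooth muscle-like cells above. Junb was at 1162, 2710.5, 3780.2 and 3727 CPM and Fosb at 367, 857, 1439 and 1119.9 CPM in its 160, 226, 111 and 49 cells, lowest in young WT Cre. Fos, at 2599.9, 4629, 3751 and 5675 CPM, was instead highest in the old library labelled EC-K4KO. The log2 ratio of old to young WT Cre was 1.70 (1.60 to 1.81) for Junb, 1.97 (1.79 to 2.15) for Fosb and 0.53 (0.44 to 0.62) for Fos.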
